A study of Mus musculus with 9 samples.

Results

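The genes described here encode the signalling chains of the T cell receptor complex, its CD8 coreceptor and the kinases and adaptors that act first when the receptor is engaged. They were chosen by name and function, with earlier results of these data known. They are the receptor chains Cd3d, Cd3e, Cd3g and Cd247, the coreceptor chains Cd8a and Cd8b1, the kinases Lck and Zap70, and the adaptors Lat and Lcp2. These are 10 of the 24060 genes in the deposited table, and 10 of 10 passed the filter on low values (a maximum TPM above 1), which kept 11330 genes. TPM, the share of a transcript among all transcripts of a library, scaled to a fixed total, is a level corrected for transcript length, so that levels of different genes can be set side by side.

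The study asked how the strength with which a T cell receptor binds its ligand shapes CD8 T cells that recognise the same peptide, ROP7 of Toxoplasma gondii. R7-I, R7-II and R7-III are transnuclear mouse lines, each made by nuclear transfer from 1 ROP7-specific CD8 T cell, so that each line is 1 clone and carries the receptor genes of its founder cell at their own loci, on a BALB/c background with an intact Rag2 gene. According to the series description, affinity for the peptide falls in the order R7-I, R7-III, R7-II, and self-reactivity falls in the order R7-III, R7-I, R7-II. The study's measurement on membranes gave similar affinities for R7-I and R7-III and a lower one for R7-II. Each clone is 1 line, so affinity cannot be told apart from other differences between the lines. Spleen cells of all 3 lines were treated alike: they spent the night in 10 ng/ml IL-2 together with the ROP7 peptide at 10 µM, after which live cells stained for CD3, CD8 and the ROP7 tetramer were sorted to a stated purity of 90 to 95%, a gate set on proteins that some of the genes described here encode. The tetramer is bound by the receptor, which differs between the clones. Whether the gate took the same part of each clone was not tested. RNA of the sorted cells was sequenced in 9 libraries, 3 per clone. The labels call the libraries of a clone biological replicates. Age, and whether each library came from a separate animal, are not given in the sources used here, so the p-values measure the spread between these libraries. Several sorter models were used, and which library came from which was not given. All 3 groups were stimulated, so the comparisons are between clones after stimulation, and the unstimulated state was not analysed here.

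As background, the antigen-binding chains of the receptor have no signalling motifs of their own. They are paired with the CD3 gamma, delta and epsilon chains and with the zeta chain (Cd247), whose cytoplasmic tails carry tyrosine motifs. Lck, which the CD8 alpha chain binds, phosphorylates these motifs. Zap70 binds to the phosphorylated motifs and phosphorylates the adaptors LAT and SLP-76 (Lcp2). These adaptors gather the enzymes that raise calcium and switch on ERK and NF-kappaB. In mature T cells, strong stimulation is known to take receptors from the surface.

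In each library 13738 to 14434 genes had a TPM above 0. Pearson correlations of log2(TPM + 1) across genes, which are not independent replicates, were 0.992 to 0.997 within a clone and 0.959 to 0.991 between clones, and no libraries were identical. TPM keeps no read depth, so no counting error is given. Over all genes tested R7-II exceeded R7-I by a median of 0.17 and R7-III by a median of 0.12 on the log2 scale, and R7-III exceeded R7-I by 0.04. The differences of R7-II are therefore also given after median-of-ratios scaling, which divides each library by the median ratio of its genes to their geometric mean over libraries and brings the medians close to 0.

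The labelled cell type was checked against its markers. All 6 CD3, zeta and CD8 chain genes were at 129 TPM or more in every library, and Cd4 was between 0.220 and 1.00 TPM. These 6 genes are members, and the cells were sorted on such proteins, so their levels are not an independent check. The constant genes of the receptor's own chains were not analysed here. Markers of other cells were low but moved with the clone. The summed level of 10 B cell markers ran from 10.6 to 19.7 TPM (R7-I), from 43.4 to 90.8 TPM (R7-II) and from 5.98 to 9.65 TPM (R7-III), and 9 of 9 tested passed as higher in R7-II against each other clone. The 8 MHC class II genes summed to 37.1 to 56.7 TPM, 132 to 202 TPM and 28.0 to 32.1 TPM in the same order, and 8 of 8 were higher in R7-II in both. The 9 myeloid markers summed to 63.2 to 72.0 TPM, 101 to 164 TPM and 63.9 to 71.4 TPM, and 6 of 9 passed as higher in R7-II against R7-I and 7 of 9 against R7-III. Cst3, high in every clone (means of 66.1, 79.5 and 64.3 TPM), weighs most in these sums. Lyz2 averaged 0.450, 32.9 and 1.89 TPM, a larger relative difference than the sums show. Of the 4 CD4 T cell markers, which summed to 3.36 to 4.11 TPM, 4.03 to 5.81 TPM and 5.62 to 8.01 TPM, 2 were tested, of which 1 was higher and 1 lower in R7-II than in R7-III, and the NK cell markers summed to at most 0.670 TPM, with Klrb1b, Klra8 and Klra4 at 0 in every library. Some of the tested markers passed the filter on low values mainly through R7-II. In the same order of clones, Blk averaged 0.487, 2.85 and 0.353 TPM, and S100a9 averaged 0.303, 2.12 and 0.173 TPM. The counts of markers higher in R7-II were therefore partly set by the filter. Of all genes tested, 40.6% passed as higher in R7-II against R7-I and 35.6% against R7-III. The part of the other cells in the results below was not tested. In such bulk samples, fewer cells of a type and less RNA per cell cannot be told apart.

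The genes of the CD3 chains lie together in mm10 (GRCm38), within 40092 bp of chromosome 9. Cd3g (chr9:44969572-44980431, minus strand) and Cd3d (chr9:44981769-44987052, plus strand) are divergent, with 1338 bp between their outermost starts, and Cd3e (chr9:44998735-45009663, minus strand) ends 11683 bp beyond the end of Cd3d. The sequence just upstream of each start is shown because these neighbours ranked the clones alike and differed between them by unequal amounts. The stretches are from RefSeq on GRCm38.p6, read 5′ to 3′ on the strand of the gene. Capitals mark the ETS core AGGAAG and the E-box CAGNTG, each read on both strands.
Cd3g, chr9:44980432-44980681, minus strand: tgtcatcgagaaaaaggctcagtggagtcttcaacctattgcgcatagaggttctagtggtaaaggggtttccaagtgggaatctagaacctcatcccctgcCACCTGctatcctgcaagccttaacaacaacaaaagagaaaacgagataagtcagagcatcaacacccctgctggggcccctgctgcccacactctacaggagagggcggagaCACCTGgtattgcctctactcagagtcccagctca
Cd3d, chr9:44981536-44981768, plus strand: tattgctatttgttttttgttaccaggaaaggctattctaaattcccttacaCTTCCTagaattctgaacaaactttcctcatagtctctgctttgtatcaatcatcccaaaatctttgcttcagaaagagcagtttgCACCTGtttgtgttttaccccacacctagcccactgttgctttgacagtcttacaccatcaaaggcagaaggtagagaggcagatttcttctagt
Cd3e, chr9:45009664-45009861, minus strand: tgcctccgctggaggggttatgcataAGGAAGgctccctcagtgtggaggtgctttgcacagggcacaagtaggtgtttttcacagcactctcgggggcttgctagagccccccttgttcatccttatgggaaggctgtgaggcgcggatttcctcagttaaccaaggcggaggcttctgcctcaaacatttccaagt
In windows of 300 bases, 250 before and 50 after a start, Cd3g held 3 E-boxes and 0 ETS cores, and Cd3d and Cd3e each held 1 E-box and 2 ETS cores, some of them in the bases past the outermost start, which are not printed. Such windows were available for 9 of the 10 members, 12 windows in all. The ETS core was in 9 of the 12 windows and in 35.4% of the 32851 windows of all genes, and the E-box was in 11 of the 12 and in 51.4% of all. Matches to TGTGGT (RUNX) were in 3 of the 12 and 16.8% of all, to CTTTGA (TCF) in 4 and 16.0%, and to AGATAA, the motif of the GATA factors, in 2 and 11.2%, each searched on both strands. A match describes the letters only, and the windows of 1 gene are not independent.

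R7-II, the clone of lowest affinity, had the highest mean TPM of all 10 genes, although after median-of-ratios scaling Zap70 and Lcp2 were highest in R7-III. Of the 10 genes 9 passed an adjusted p of 0.01 with R7-II above R7-I, and 56.1% of all genes tested passed (40.6% higher, 15.5% lower), and 8 passed with R7-II above R7-III, where 53.6% of all did (35.6% higher, 18.0% lower). Their median log2 fold changes in the comparisons with R7-I and R7-III were 0.40 and 0.35. After median-of-ratios scaling 7 and 6 passed, all higher, with medians of 0.22 in both, while 54.7% of all genes passed against R7-I (25.2% higher, 29.4% lower) and 53.3% against R7-III (25.0% higher, 28.2% lower). After quantile normalization, which gives every library the same distribution of values, 10 and 9 passed, all higher, with medians of 0.48 and 0.42. Of all 11330 genes, 2558 were then higher and 3018 lower against R7-I, and 2759 and 2843 against R7-III. The size of the differences thus depended on the scaling. R7-III and R7-I differed in 3 of the 10 genes, the CD3 chains, all higher in R7-III, against 8.41% of all genes (6.96% higher, 1.45% lower), and in 2 after scaling, where 8.59% of all genes passed (4.86% higher, 3.72% lower). The comparisons of R7-II share its 3 libraries, so they are not independent of each other.

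**Figure D1:**
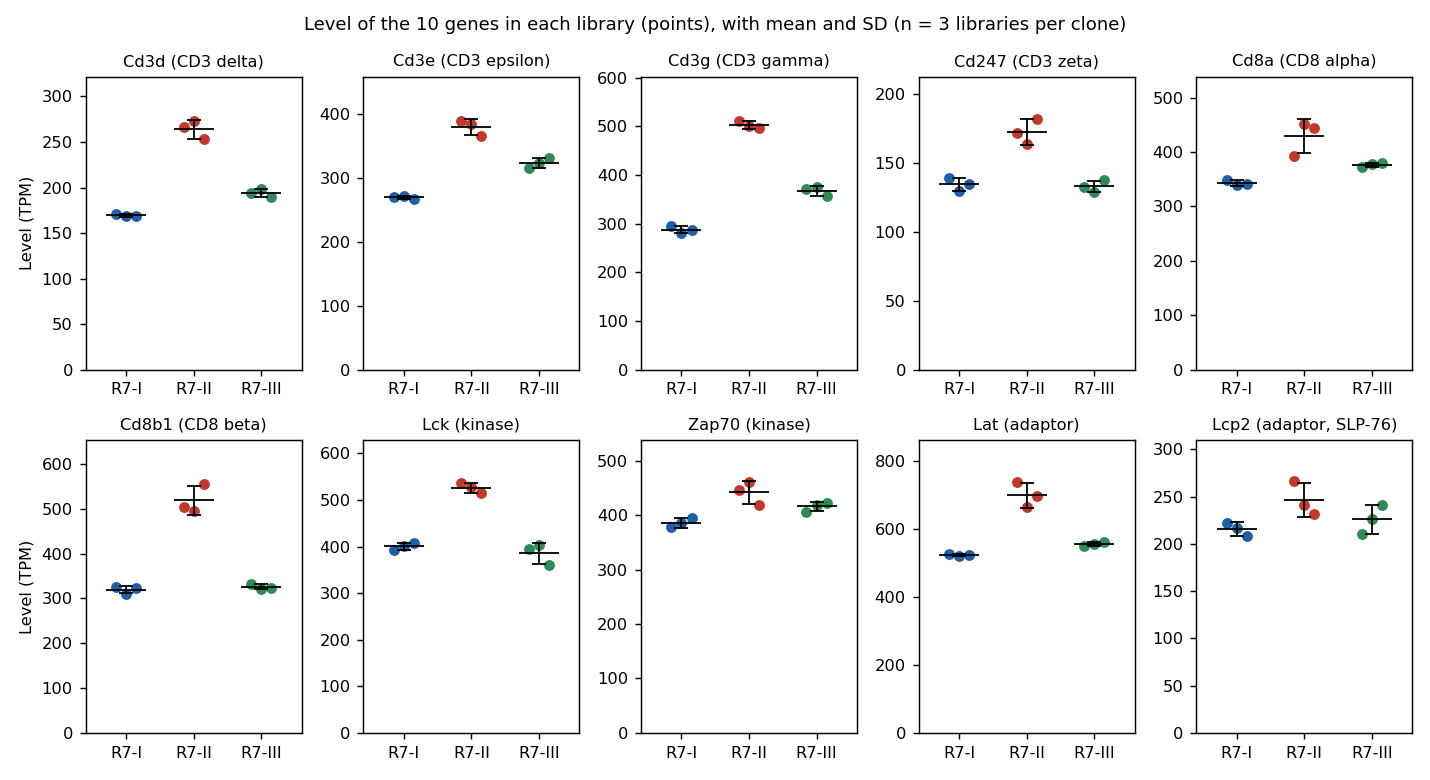
Level of each gene in TPM (vertical axes, starting at 0 and scaled separately) in the 9 libraries by clone; points are libraries and bars the mean and SD of 3 libraries. The R7-II points lie above all others for 8 genes and overlap those of R7-III for Zap70 and Lcp2, and for Cd3d, Cd3e and Cd3g the R7-III points lie between those of R7-I and R7-II.

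Cd3g, the gamma chain, had the widest span of the 10 genes between clone means. It was at 294.51, 279.89 and 286.60 TPM in R7-I, at 510.88, 501.08 and 495.76 TPM in R7-II, and at 369.97, 375.04 and 356.03 TPM in R7-III. The clones did not overlap, with R7-II highest and R7-I lowest. R7-II exceeded R7-I by 0.81 on the log2 scale (1.75-fold, standard error 0.0293, adjusted p = 2.12e-08, from limma with adjustment by Benjamini-Hochberg across the 11330 genes) and R7-III by 0.45 (adjusted p = 4.75e-07). R7-III was higher than R7-I by 0.35 (adjusted p = 4.42e-05). After median-of-ratios scaling the differences of R7-II were 0.62 and 0.32, and each of these calls held under all 20 alternatives run.

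Cd3d, the delta chain, was at 171.30, 168.40 and 168.72 TPM in R7-I, at 266.10, 272.72 and 252.73 TPM in R7-II, and at 194.47, 198.63 and 189.19 TPM in R7-III. The order of the clones was that of Cd3g, again without overlap. R7-II was 1.55-fold above R7-I (log2 fold change 0.63, standard error 0.0331, adjusted p = 1.23e-07 from limma) and 1.36-fold above R7-III (0.44, adjusted p = 1.28e-06), and after median-of-ratios scaling these differences were 0.45 and 0.31 and still passed. The smaller difference of R7-III from R7-I (0.19, adjusted p = 0.00284) did not pass after median-of-ratios scaling (adjusted p = 0.0394), without R7-I replicate 1, 2 or 3 in turn (adjusted p = 0.0117, 0.0133 and 0.0119), or when R7-III replicate 1 or 2 was left out (0.0143 and 0.0168), in a range from limma of 0.00134 to 0.0394 over the alternatives.

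Cd3e, the epsilon chain, which pairs with both of the others, was at 270.46, 272.04 and 267.14 TPM in R7-I, at 389.47, 384.29 and 366.01 TPM in R7-II, and at 316.19, 323.90 and 330.78 TPM in R7-III. R7-III again lay between the others, and no libraries of different clones overlapped. The log2 fold changes were 0.49 for R7-II against R7-I (standard error 0.0299, adjusted p = 3.25e-07 from limma), 0.23 for R7-II against R7-III (adjusted p = 6.26e-05) and 0.26 for R7-III against R7-I (adjusted p = 3.17e-04). After median-of-ratios scaling the difference from R7-I was 0.30 and still passed, and that from R7-III was 0.10 and did not (adjusted p = 0.0207).

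Cd247, the zeta chain, lies apart from the CD3 genes (chr1:165779952-165871153, plus strand) and was the lowest of the 10 genes. It was at 139.17, 129.60 and 134.70 TPM in R7-I, at 171.92, 163.73 and 182.10 TPM in R7-II, and at 132.44, 129.35 and 137.41 TPM in R7-III. R7-II lay above the other 6 libraries, while R7-I and R7-III overlapped. R7-II was higher by 0.36 against R7-I (standard error 0.0436, adjusted p = 3.89e-05) and by 0.37 against R7-III (adjusted p = 3.07e-05, both from limma), and after median-of-ratios scaling by 0.17 and 0.24, which still passed (adjusted p = 0.00412 and 5.30e-04). R7-III minus R7-I was -0.02 on the log2 scale, with a 95% confidence interval of -0.11 to 0.08 (adjusted p = 0.857), and without R7-I replicate 1 it was 0.0097 and without R7-III replicate 2 it was 0.0050. The end of Cd247 overlaps Pou2f1 by 6004 bp, and the library kit did not mark strand, so reads there could come from either gene; Pou2f1 was at 11.1, 13.9 and 9.77 TPM on average in R7-I, R7-II and R7-III.

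The balance of the chains differed between clones. Within a library the ratio of genes does not depend on how the library was scaled, and ratios are given as a description without a test. Cd3g over Cd3e was 1.32 ± 0.0272 in R7-II (mean ± SD, n = 3 libraries, as for all ratios), 1.06 ± 0.0311 in R7-I and 1.13 ± 0.0510 in R7-III, with R7-II above both and the other clones overlapping. Cd3d over Cd3e was 0.694 ± 0.0137 in R7-II, 0.628 ± 0.00781 in R7-I and 0.600 ± 0.0244 in R7-III, again highest in R7-II. Cd247 over Cd3e had another order. It was highest in R7-I (0.498 ± 0.0197), 0.455 ± 0.0376 in R7-II, which overlapped R7-I, and lowest in R7-III (0.411 ± 0.0104). Of the summed TPM of the 4 chains, Cd3g made up 33.3% in R7-I, 38.1% in R7-II and 36.1% in R7-III, and Cd247 15.6%, 13.1% and 13.1%.

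Cd8a and Cd8b1 encode the alpha and beta chains of the coreceptor, which binds MHC class I and of which the alpha chain binds Lck. The genes are neighbours on chromosome 6, Cd8b1 at chr6:71322788-71337492 and Cd8a at chr6:71373427-71379171, both on the plus strand and 35935 bp apart. Cd8b1 was at 325.51, 310.44 and 323.30 TPM in R7-I, at 504.52, 496.02 and 555.09 TPM in R7-II, and at 331.90, 322.18 and 323.70 TPM in R7-III. R7-II stood apart from the other 6 libraries, and R7-I and R7-III overlapped. R7-II was 1.62-fold above R7-I (log2 fold change 0.69, standard error 0.0406, adjusted p = 2.50e-07 from limma) and 1.59-fold above R7-III (0.67, adjusted p = 3.29e-07), which was the largest difference of the 10 genes in the latter comparison. After median-of-ratios scaling these differences were 0.51 and 0.53, and both passed. R7-III against R7-I gave 0.03 (95% confidence interval -0.06 to 0.12, adjusted p = 0.691), and -0.03 after median-of-ratios scaling.

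Cd8a differed by smaller amounts than its neighbour. It was at 349.00, 338.55 and 340.55 TPM in R7-I, at 393.14, 451.87 and 443.77 TPM in R7-II, and at 372.28, 377.55 and 379.99 TPM in R7-III. The clones did not overlap, but R7-II replicate 1 lay closer to R7-III than to the other R7-II libraries. R7-II exceeded R7-I by 0.32 on the log2 scale (standard error 0.0452, adjusted p = 1.02e-04) and R7-III by 0.19 (adjusted p = 0.00397, both from limma), and after median-of-ratios scaling neither passed (0.13 and 0.05, adjusted p = 0.0676 and 0.452). The call against R7-III was also lost without R7-II replicate 2 or 3 (adjusted p = 0.0143 and 0.0169) and without R7-III replicate 1, 2 or 3 in turn (adjusted p = 0.0160, 0.0126 and 0.0102), within a range of 3.28e-05 to 0.461 over the alternatives. R7-III against R7-I gave 0.14 (adjusted p = 0.0613), which passed without R7-II replicate 1 (adjusted p = 0.00341), within a range of 0.00341 to 0.382.

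The ratio of Cd8b1 to Cd8a was 1.21 ± 0.0991 in R7-II, with values of 1.28, 1.10 and 1.25 in its libraries. In R7-I it was 0.933 ± 0.0162 and in R7-III 0.866 ± 0.0225. R7-II was the clone with more Cd8b1 than Cd8a transcript in every library, and no clones overlapped.

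**Figure D2:**
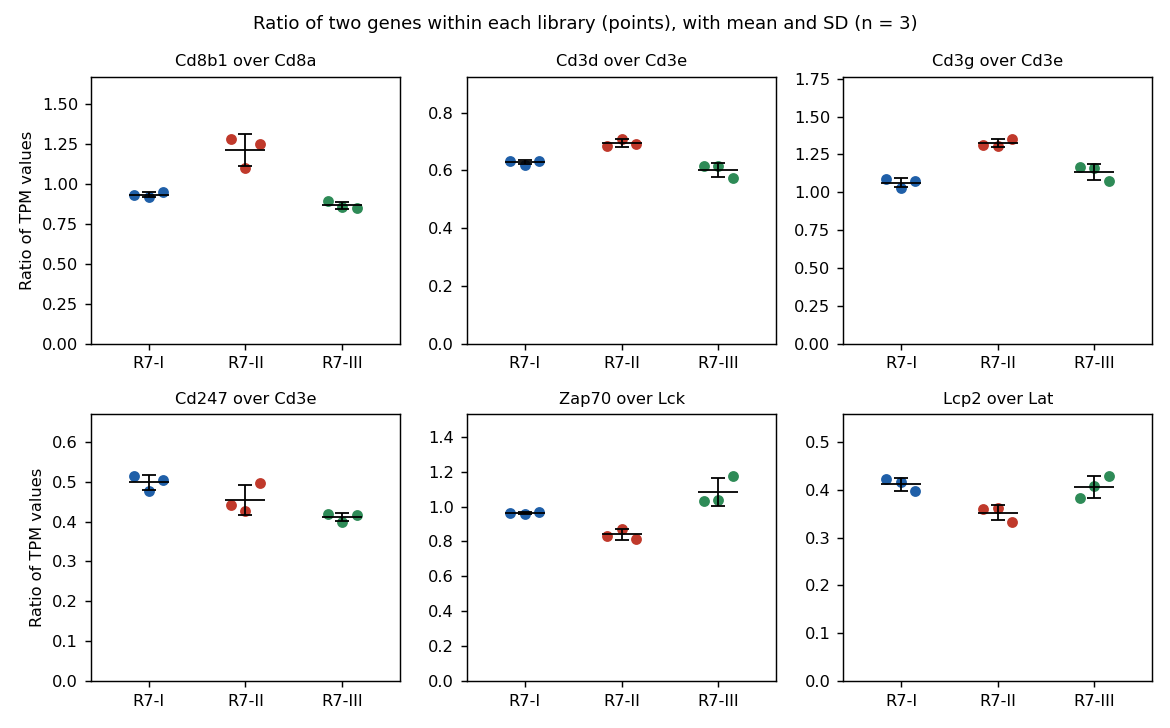
Ratio of TPM values of gene pairs within each library (vertical axes, starting at 0) by clone; points are libraries and bars the mean and SD of 3 libraries. Cd8b1 over Cd8a, Cd3d over Cd3e and Cd3g over Cd3e were highest in R7-II, while Zap70 over Lck and Lcp2 over Lat were lowest there.

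Lck (chr4:129548344-129573641, minus strand), the Src family kinase that starts the cascade, was at 392.51, 401.98 and 406.82 TPM in R7-I, at 535.94, 527.76 and 514.97 TPM in R7-II, and at 393.96, 402.94 and 359.75 TPM in R7-III. R7-II lay above the rest, and R7-I and R7-III overlapped. R7-II was 1.31-fold above R7-I (log2 fold change 0.39, standard error 0.0396, adjusted p = 9.65e-06 from limma) and 1.37-fold above R7-III (0.45, adjusted p = 3.99e-06). Both calls held under all alternatives, with values of 0.21 and 0.32 after median-of-ratios scaling. The difference of R7-III from R7-I was -0.06, with a 95% confidence interval of -0.14 to 0.03 (adjusted p = 0.368).

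Zap70 (chr1:36761798-36782821, plus strand), which docks on the phosphorylated chains, showed a smaller difference. It was at 377.57, 384.77 and 394.39 TPM in R7-I, at 446.56, 460.26 and 419.37 TPM in R7-II, and at 406.73, 418.48 and 422.86 TPM in R7-III. R7-I was lowest, and R7-II replicate 3 fell within the range of R7-III. R7-II exceeded R7-I by 0.20 on the log2 scale (standard error 0.0354, adjusted p = 5.92e-04 from limma), 0.03 above the median of all genes, and after median-of-ratios scaling it was 0.0083 (adjusted p = 0.868). Against R7-III it was 0.09 (95% confidence interval 0.0081 to 0.16, adjusted p = 0.0503), and it passed without R7-II replicate 3 (0.12, adjusted p = 0.00690, in a range of 4.28e-04 to 0.325 over the alternatives). This difference turned to -0.05 after median-of-ratios scaling, while after quantile normalization it was 0.17 and passed (adjusted p = 4.28e-04 from limma). R7-III against R7-I gave 0.11 (adjusted p = 0.0553), although their libraries did not overlap.

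Zap70 over Lck was 0.963 ± 0.00618 in R7-I, 0.840 ± 0.0294 in R7-II and 1.08 ± 0.0809 in R7-III, without overlap. R7-III was the clone with more Zap70 than Lck transcript in each library.

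Lat (chr7:126363827-126369705, minus strand), the membrane scaffold that Zap70 phosphorylates, was the most abundant of the 10 genes. It was at 525.73, 519.91 and 524.50 TPM in R7-I, at 737.39, 665.02 and 695.78 TPM in R7-II, and at 550.68, 556.11 and 561.47 TPM in R7-III. The clones did not overlap, with R7-III close above R7-I. R7-II was higher by 0.42 against R7-I (standard error 0.0337, adjusted p = 2.20e-06 from limma) and by 0.33 against R7-III (adjusted p = 1.18e-05). These calls held under all alternatives, with values of 0.23 and 0.20 after median-of-ratios scaling. R7-III against R7-I gave 0.09 (adjusted p = 0.0993).

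Lcp2 (chr11:34046928-34092281, plus strand), which encodes SLP-76, the cytosolic partner of LAT, showed the smallest span between clones. It was at 222.13, 216.59 and 208.02 TPM in R7-I, at 266.01, 240.98 and 231.87 TPM in R7-II, and at 210.37, 226.57 and 240.85 TPM in R7-III. R7-III overlapped both other clones, and R7-II and R7-I did not overlap. No comparison passed: R7-II gave 0.19 against R7-I (95% confidence interval 0.06 to 0.32, adjusted p = 0.0133 from limma) and 0.12 against R7-III (-0.0039 to 0.25, adjusted p = 0.0795), and R7-III gave 0.07 against R7-I (adjusted p = 0.475). The first passed without R7-II replicate 3 (adjusted p = 0.00693) and when R7-III replicate 1 or 3 was left out (0.00882 and 0.00962), in a range of 0.00693 to 0.977. It passed after quantile normalization too (0.21, adjusted p = 0.00892 from limma). After median-of-ratios scaling it was 0.0021, and the difference from R7-III turned to -0.0099. Lcp2 over Lat was 0.412 ± 0.0136 in R7-I, 0.352 ± 0.0164 in R7-II and 0.406 ± 0.0235 in R7-III, lowest in R7-II without overlap. Lcp2 lies wholly within an annotated long noncoding RNA gene that was not analysed here, and the library kit did not mark strand, so reads there could come from either.

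**Figure D3:**
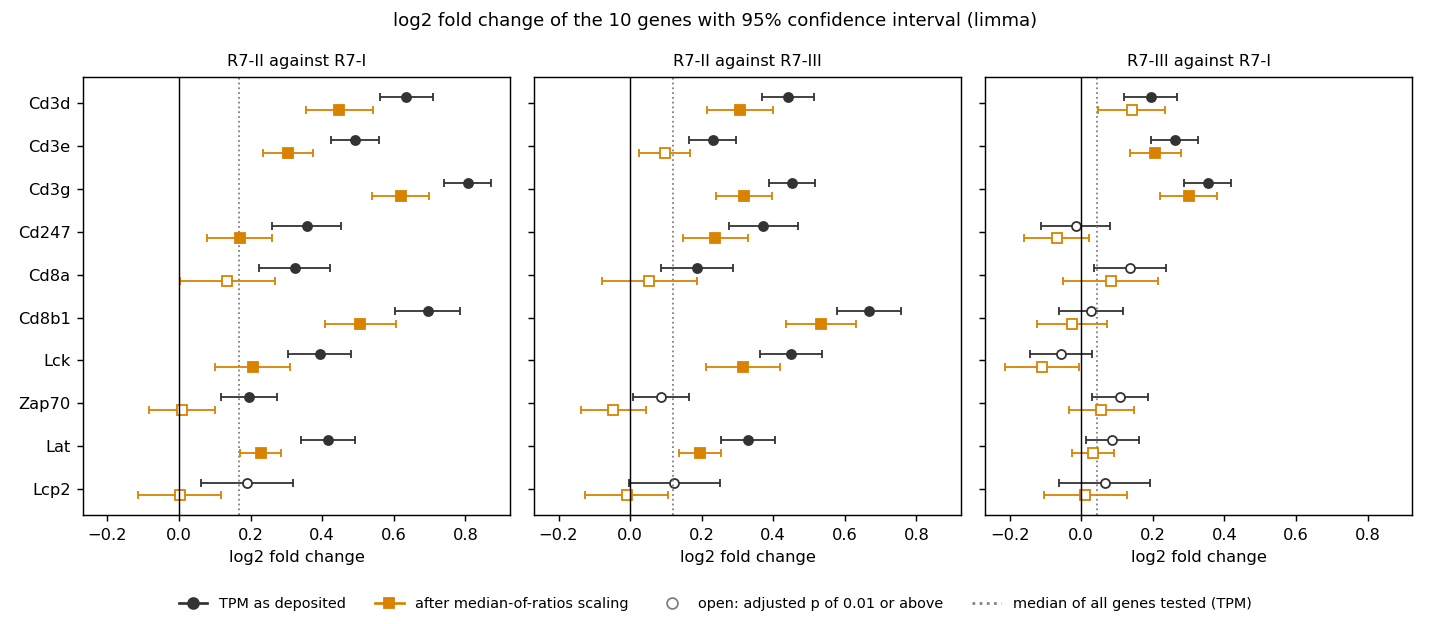
log2 fold change of the 10 genes (horizontal axes) in the 3 comparisons, with 95% confidence intervals from limma; circles are TPM values as deposited, squares values after median-of-ratios scaling, open symbols an adjusted p of 0.01 or above, and dotted lines the median of all genes tested. Cd3g and Cd8b1 lie farthest to the right of the median against R7-I, and Zap70 and Lcp2 lie close to it.

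Across the 10 genes, in TPM as deposited, all 3 R7-II libraries lay above the other 6 for 8 genes, which was so for 41.7% of all genes tested, and below them for 0 genes, against 17.4% of all. An exact permutation test (two-sided) of these 3 libraries against 6 gave p = 0.0476 for Zap70 and Lcp2. For the 8 genes the exact test gave p = 0.0238, the smallest that 84 splits allow, which their separation fixes and which therefore adds nothing to it. R7-II above R7-III above R7-I is the reverse of the affinity order in the series description. This full order held without overlap for 5 genes (Cd3d, Cd3e, Cd3g, Cd8a and Lat) and for 11.5% of all genes. For 6 genes, those 5 and Zap70, R7-III lay above R7-I, as did 29.5% of all genes. These separations, orders and exact tests used values without scaling, in which R7-II was higher over all genes, and were not recomputed after scaling. For Cd8a the median-of-ratios scaled level was 361 ± 7.99 in R7-I, 398 ± 39.5 in R7-II and 383 ± 2.41 in R7-III (mean ± SD), so its separation may not hold there. The stated order of self-reactivity, with R7-III first and R7-II last, was that of no member by mean level. Relative to the median of all genes, the differences of R7-II from R7-I ranged from 0.02 for Lcp2 to 0.64 for Cd3g, and those from R7-III from -0.03 for Zap70 to 0.55 for Cd8b1.

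Genes that were not members but had the most similar pattern over the 9 libraries were named by the root mean square difference of their deviations from their own mean log2(TPM + 1). For the mean of Cd3d, Cd3e and Cd3g these included Atp13a2 (0.0317) and Tigd2 (0.0436), and for Cd3g alone they were Abhd8 (0.0447), Suv420h2 (0.0493) and Zkscan3 (0.04996). These 5 genes had mean levels of 10.2 to 41.0 TPM, below every member.

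The rest of the proximal pathway was described from a list of 53 genes by role, of which 52 were tested and Gab2 was below the filter. Between R7-II and R7-I 30 were higher, 6 lower and 16 did not pass, and between R7-II and R7-III 31 were higher, 8 lower and 13 did not pass. Of all genes tested, 40.6% were higher and 15.5% lower in R7-II against R7-I, and 35.6% higher and 18.0% lower against R7-III. The pathway medians were 0.31 and 0.29, against 0.17 and 0.12 over all genes. After median-of-ratios scaling the counts were 24 higher and 13 lower against R7-I, and 25 and 13 against R7-III, beside 25.2% higher and 29.4% lower of all genes against R7-I and 25.0% and 28.2% against R7-III. Between R7-III and R7-I 7 were higher and 0 lower, with 45 not passing (6.96% higher and 1.45% lower of all genes), and after scaling 5 were higher and 3 lower (4.86% and 3.72% of all genes).

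Of the 10 other kinases and kinase regulators, 8 passed as higher in R7-II against each other clone, beside 40.6% of all genes against R7-I and 35.6% against R7-III. After median-of-ratios scaling 5 were higher and 1 lower against R7-I, beside 25.2% and 29.4% of all genes. Against R7-III 6 were then higher and 2 lower, beside 25.0% and 28.2%. The Tec family kinase Txk averaged 11.9 ± 0.525 TPM (R7-I), 35.2 ± 5.10 TPM (R7-II) and 12.1 ± 0.206 TPM (R7-III), with log2 fold changes of 1.48 and 1.46 (adjusted p = 2.80e-07 and 3.18e-07 from limma). Tec itself was at 4.11 ± 0.240, 8.42 ± 0.934 and 3.98 ± 0.511 TPM. Syk, the relative of Zap70 that B cells and myeloid cells use, was at 0.417 ± 0.178, 2.74 ± 0.767 and 0.337 ± 0.103 TPM (1.39 and 1.47, adjusted p = 3.94e-05 and 2.81e-05), and the B cell and myeloid markers given above moved the same way, whose part was not tested. Only R7-II lifted Syk over the filter on low values, as no library of another clone exceeded 0.62 TPM. The filter thus favoured a higher call for Syk, which is 1 of the 8 genes counted above. Lime1, an adaptor that binds Lck and Csk, was at 45.7 ± 1.61, 81.3 ± 6.26 and 48.6 ± 0.552 TPM. After median-of-ratios scaling all 4 genes still passed, with log2 fold changes against R7-III of 1.33 for Txk, 0.80 for Tec, 1.38 for Syk and 0.60 for Lime1. Unc119, which binds Src family kinases, was the 1 gene lower in R7-II than in R7-III (-0.94, adjusted p = 1.07e-04) and the 1 gene of the list that differed between R7-III and R7-I. It averaged 2.85 ± 0.532 TPM (R7-I), 2.42 ± 0.493 TPM (R7-II) and 5.55 ± 0.400 TPM (R7-III) (0.77, adjusted p = 0.00289). The latter call was lost when R7-I replicate 1 (adjusted p = 0.0132), R7-III replicate 1 (0.0162) or R7-III replicate 2 (0.0137) was left out. It was also lost after quantile normalization (adjusted p = 0.0150 from limma). With median-of-ratios scaling and the replicate number as a block it was lost too (adjusted p = 0.0118 from limma).

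The 20 phosphatases and inhibitory adaptors went in both directions, as did genes at large. Against R7-I 10 were higher in R7-II and 4 lower, beside 40.6% and 15.5% of all genes. Against R7-III 9 were higher and 5 lower, beside 35.6% and 18.0% of all genes. After scaling these counts were 9 and 8, and 8 and 6, beside 25.2% and 29.4%, and 25.0% and 28.2%, of all genes. Among the higher ones were adaptors that damp receptor signals. Sla2 averaged 6.79 ± 0.452 TPM (R7-I), 26.0 ± 3.10 TPM (R7-II) and 9.72 ± 0.340 TPM (R7-III) (1.79 and 1.33, adjusted p = 7.07e-08 and 3.98e-07 from limma), and Dok2 was at 18.0 ± 0.407, 64.2 ± 4.04 and 22.4 ± 1.85 TPM (1.78 and 1.48). Lax1 was at 7.18 ± 1.11, 18.2 ± 1.55 and 10.1 ± 0.284 TPM (1.24 and 0.79). The genes lower in R7-II in both comparisons were Ubash3b, Cd5, Cd6 and Ptpn7, and Ptpn6 was lower against R7-III; Cd5, Cd6, Ptpn7 and Ptpn6 were singled out after their values were seen. Ubash3b, a phosphatase that acts on Zap70, averaged 10.2 ± 1.205 TPM (R7-I), 4.34 ± 1.25 TPM (R7-II) and 23.4 ± 0.812 TPM (R7-III), with log2 fold changes of -1.10 and -2.22 for R7-II (adjusted p = 6.86e-05 and 5.07e-07). Cd5, a surface receptor that restrains receptor signals, had log2 fold changes of -0.61 and -0.94 (adjusted p = 1.37e-04 and 7.14e-06 from limma). Ptpn6 (SHP-1), a phosphatase, had -0.42 against R7-III (adjusted p = 3.57e-05 from limma). After median-of-ratios scaling the differences from R7-I were 1.61 for Sla2, 1.60 for Dok2, 1.07 for Lax1, -1.25 for Ubash3b and -0.80 for Cd5, and these genes still passed against both clones.

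Of these 20 genes 4 were higher in R7-III than in R7-I and 0 lower, beside 6.96% and 1.45% of all genes. Ubash3b differed by 1.12 (adjusted p = 6.43e-04), Ptpn6 by 0.34 (adjusted p = 0.00134), Ptpn7 by 0.28 (adjusted p = 0.00149) and Sla2 by 0.46 (adjusted p = 0.00382, all from limma). After median-of-ratios scaling 3 were higher and 2 lower. Ptpn6 no longer passed (adjusted p = 0.0111), and Sla (-0.36, adjusted p = 0.00367) and Ptpn2 (-0.17, adjusted p = 0.00607), singled out after their values were seen, passed as lower in R7-III. Sla2 lost its call without any 1 of the R7-I or R7-III libraries, with adjusted p values from limma of 0.0209, 0.0102 and 0.0114 without R7-I replicates 1, 2 and 3 and of 0.0175, 0.0194 and 0.0117 without R7-III replicates 1, 2 and 3. The Sla2 call was also lost without the filter on low values (adjusted p = 0.0119 from limma) and after quantile normalization (0.0141). With the replicate number as a block it was lost without scaling (0.0110) and with median-of-ratios scaling (0.0123).

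Of the 22 other adaptors and effectors tested, R7-II had 12 higher and 2 lower than R7-I, beside 40.6% and 15.5% of all genes. Against R7-III it had 14 higher and 2 lower, beside 35.6% and 18.0%. After scaling these counts were 10 and 4, and 11 and 5, beside 25.2% and 29.4%, and 25.0% and 28.2%, of all genes. Fyb, an adaptor that links SLP-76 to integrin activation, averaged 18.3 ± 0.374 TPM (R7-I), 66.7 ± 10.4 TPM (R7-II) and 19.9 ± 1.04 TPM (R7-III) (1.80 and 1.69, adjusted p = 1.23e-07 and 1.99e-07 from limma). Skap1, a binding partner of its product, was at 30.2 ± 0.514, 65.0 ± 5.92 and 42.3 ± 1.42 TPM (1.08 and 0.60). Grap2 (GADS), which joins SLP-76 to LAT, was at 55.2 ± 2.91, 113 ± 10.7 and 52.8 ± 3.34 TPM (1.02 and 1.08). The 2 lower genes in both comparisons were Malt1 (-0.82 and -0.62) and Sh2d1a (-0.78 and -0.61), singled out after their values were seen; Malt1 encodes a protease on the way to NF-kappaB. After median-of-ratios scaling the differences were 1.62 and 1.56 for Fyb, 0.89 and 0.47 for Skap1, 0.84 and 0.95 for Grap2, -1.01 and -0.75 for Malt1 and -0.96 and -0.73 for Sh2d1a, all still past the threshold.

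In this list 2 genes differed between R7-III and R7-I. Skap1 was higher in R7-III by 0.47 (adjusted p = 5.30e-04 from limma). Prkcq, which encodes protein kinase C theta, a kinase on the way to NF-kappaB, averaged 58.7 ± 2.16 TPM (R7-I), 105 ± 3.89 TPM (R7-II) and 67.3 ± 1.98 TPM (R7-III), and its difference of 0.19 (adjusted p = 0.00937) did not pass after median-of-ratios scaling (adjusted p = 0.0401). It was also lost without R7-I replicate 1, 2 or 3 in turn (adjusted p = 0.0460, 0.0119 and 0.0300), without R7-II replicate 1 (0.0106) and without R7-III replicate 1, 2 or 3 (0.0283, 0.0445 and 0.0204). The Prkcq call was lost too after quantile normalization (adjusted p = 0.0308 from limma) and without the filter on low values (0.0149). With the replicate number as a block it was lost without scaling (0.0189) and with median-of-ratios scaling (0.0512).

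**Figure D4:**
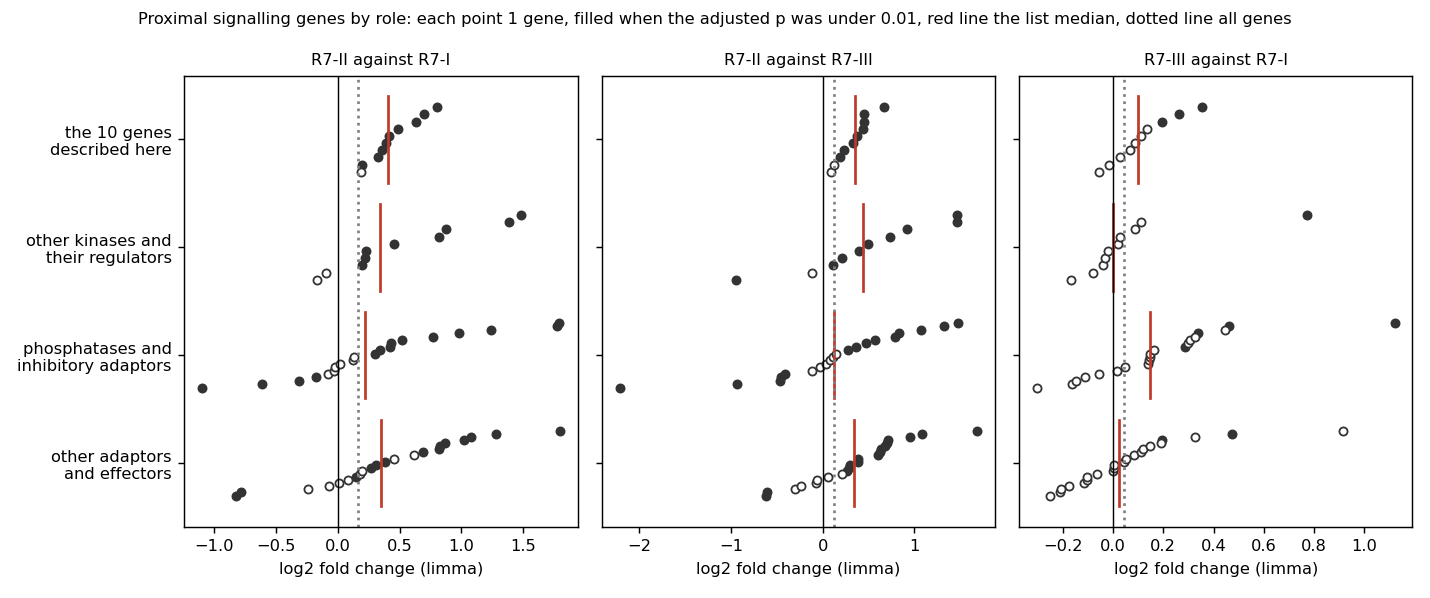
log2 fold change (horizontal axes, scaled separately) of the 10 genes and of the 3 lists of other proximal signalling genes in the 3 comparisons; each point is 1 gene, filled at an adjusted p under 0.01 from limma, the red line is the list median and the dotted line the median of all genes tested. The phosphatases and inhibitory adaptors reach from -1.10 (Ubash3b) to 1.79 (Sla2) for R7-II against R7-I, while the 10 genes lie between 0.19 and 0.81.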

How the data were processed

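RNA of peptide-stimulated, sorted CD8 T cells was measured in 9 libraries, 3 per clone, grouped by the clone (R7-I, R7-II or R7-III) that the labels name. The authors estimated gene levels with RSEM 1.2.11 on RefSeq genes of mm10, from single-end reads of a poly(A) library that did not mark strand, and deposited TPM rounded to 2 decimals; the aligner was not given in the sources used here. Depth is not known from TPM. The authors tested counts with DESeq2 1.8.1; those counts were not used here.

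Genes with a maximum TPM above 1 (11330) were fitted as log2(TPM + 1), which understates changes of low genes, with limma 3.58.1 in R 4.3.3 (lmFit, contrasts, eBayes with trend), all 9 libraries in 1 fit, Benjamini-Hochberg adjustment over all genes and a threshold of 0.01. The fit was run on simulated data with few changed genes and no shift over all genes. That setting differs from these data, so it does not bear on calls that depend on the scaling. Exact permutation tests used scipy 1.17.1 in Python 3.11.15. Fold changes and counts of genes passing were recomputed with other pseudocounts, filters, scalings, moderation and threshold, with only the 2 clones of a comparison, with the replicate number as a block, and without each library. The members and lists were chosen with earlier results of these data known. Named were all members. Of each pathway list the rule took the 4 largest changes of R7-II against R7-I among genes passing in the same direction in both comparisons of R7-II, and the 2 largest between R7-III and R7-I among those passing. Of each marker list it took the 2 most abundant genes, and for likeness the 3 nearest genes. Of the genes this rule took, 2 are not reported here. Positions are those of RefSeq genes on GRCm38 (mm10).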

Additional observations from a re-analysis of the deposited data

How the results depend on the processing

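Of 30 member results under 20 alternatives each, 561 of 600 values had the same direction and call, and 19 results did so under every alternative. After median-of-ratios scaling, with and without the replicate block, the difference of R7-II from R7-III turned to -0.0474 for Zap70 and -0.0099 for Lcp2, and that of R7-III from R7-I to -0.0260 for Cd8b1 and -0.0291 for Txk (-0.0752 after quantile normalization). With each library left out, the latter difference spanned 0 for Cd247 (-0.0413 to 0.0097), Syk (-0.143 to 0.0210, positive without R7-I replicate 2) and Tec (-0.123 to 0.00385, positive without R7-III replicate 1). The count of pathway genes passing between R7-III and R7-I, 7, became 12 when every library had to reach a TPM of 1, 4 after quantile normalization, 4 with median-of-ratios scaling and the replicate block, 11 with robust moderation, 13 with only the 6 libraries of both clones and 19 under a threshold of 0.05. With libraries left out it lay between 4 (without R7-I replicate 1 or R7-III replicate 1) and 12 (without R7-II replicate 2; 11 without R7-II replicate 3). Over all genes the count of 953 became 609 with scaling and block and 2142 under a threshold of 0.05, and it ranged from 436 to 1120 with libraries left out (436, 577, 496, 497 and 530 without R7-I replicate 1 or 2 or R7-III replicate 1, 2 or 3). The cause was not tested. No pairing of same-numbered libraries was seen (9 correlations of deviations, -0.0449 to 0.0888, none over 0.1), although a small shared effect could be missed this way. With the replicate block 9, 8 and 3 members passed, as without it. Depth is unknown, so counting error could not be given.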

Other observations

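Of the MHC class II genes Cd74, the invariant chain, had means of 17.4 TPM (R7-I), 77.9 TPM (R7-II) and 10.6 TPM (R7-III), and H2-Aa had means of 7.19, 30.1 and 4.37 TPM. The B cell receptor chains Cd79b and Cd79a were at 3.54, 18.8 and 2.23 TPM and at 2.78, 14.5 and 1.38 TPM. Of the myeloid markers, Cst3 averaged 66.1, 79.5 and 64.3 TPM, and Lyz2 averaged 0.450, 32.9 and 1.89 TPM. Of the CD4 T cell markers Cd40lg was at 2.65, 2.18 and 5.41 TPM. Of the NK cell markers Klri2 was at 0.150, 0.107 and 0.383 TPM. All of these levels were below those of the least abundant member, Cd247, whose lowest library was at 129.35 TPM.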
